A study of Mus musculus with 6 samples.

Results

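Transcripts of 42 mouse genes that encode subunits of glutamate and GABA receptors were examined in 6 brain tumors, out of 24537 gene rows counted. Members were chosen by gene symbol, with earlier results of these data known. The glutamate receptor members were AMPA (Gria), kainate (Grik), delta (Grid) and NMDA (Grin) subunits and the metabotropic receptors (Grm). The GABA receptor members were the GABA-A subunits (Gabra to Gabrr) and the GABA-B subunits (Gabbr). The genes described comprised 4 AMPA, 5 kainate, 1 delta and 7 NMDA genes, 7 metabotropic glutamate receptor genes, 16 GABA-A genes and 2 GABA-B genes. The tumors arose in CD-1 IGS mice after in utero electroporation, in which plasmids are driven into the embryonic brain by an electric pulse. All carried the constructs labelled PdgfraD482V and DNp53, the first a mutant platelet-derived growth factor receptor. The 3 libraries titled FOXR2 also carried FOXR2, a forkhead transcription factor, and the 3 titled Control did not. The age of the mice, the promoters of the constructs and whether each tumor came from a separate animal were not stated. Each p-value thus reflects only how far these samples spread, which may be partly technical. Triplets of values below are given in the order of replicates 1, 2 and 3.

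The deposited sample sheet contradicts the titles, swapping the groups of 6 of 6 libraries. Groups follow the titles throughout, and every direction is inverted if the sheet holds. The row for mouse Foxr2 did not settle this, with 22, 1 and 7 counts in FOXR2 replicates 1 to 3 and 4, 10 and 7 in Control replicates 1 to 3. Whether that row counts the transcript of the electroporated construct was not stated, so it is no measure of FOXR2 expression from the plasmid. Libraries held 13429489 to 17927025 counts, so that 3 counts, the floor used here, equalled 0.174 to 0.219 CPM (counts scaled to the usual common library size, with TMM factors). Read from Xist and Y-linked transcripts, FOXR2 replicates 1 and 3 and Control replicate 1 were male, and FOXR2 replicate 2 and Control replicates 2 and 3 were female. Each title thus held tumors of more than 1 animal, and whether all 3 came from separate animals stays unknown. The libraries carried strong oligodendrocyte precursor markers, with Olig2 at 446 to 813 CPM. FOXR2 replicate 2 stood apart in microglia and macrophage markers, which summed to 1204 CPM there and to 4.76 to 14.0 CPM in the other 5 libraries.

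Glutamate and GABA are the main excitatory and inhibitory transmitters of the brain. AMPA, kainate and NMDA receptors are tetrameric cation channels opened by glutamate, GABA-A receptors are pentameric chloride channels, and the metabotropic and GABA-B receptors act through G proteins. Oligodendrocyte precursors carry many of these receptors and receive synapses from neurons, and some gliomas do so as well.

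Of the 42 genes, 26 passed the filter on low counts and were tested, and 16 did not. Gabbr2 was higher in FOXR2-titled libraries, and 0 of the 26 were called lower. It was the 1 call among them at an adjusted p under 0.05 (edgeR quasi-likelihood test, Benjamini-Hochberg over all genes). Over all 13101 tested genes 0.908% were called higher and 1.38% lower, or 2.29% in either direction. Fitted values lay above 0 for 22 of the 26, with a median log2 fold change of 0.81, where all tested genes had a median of 0.011 and 50.7% of them lay above 0. The 22 include Grin3b and Grm4, which reached the cutoff of the filter only in libraries titled FOXR2. Their place in this count and median thus already depended on being higher there. DESeq2, which made more calls throughout, gave an adjusted p to 31 of the described receptor genes and called 7 higher and 0 lower, adding Gria1, Gria4, Grm4, Grm7, Gabra5 and Gabrb2. Of the 13992 genes with a DESeq2 adjusted p, 6.73% were called higher and 6.7% lower. Grm4, Grm7 and Gabra5 reached the cutoff of the edgeR filter only in libraries titled FOXR2. Their place among the genes that DESeq2 could call may thus itself depend on being higher there.

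**Figure D1:**
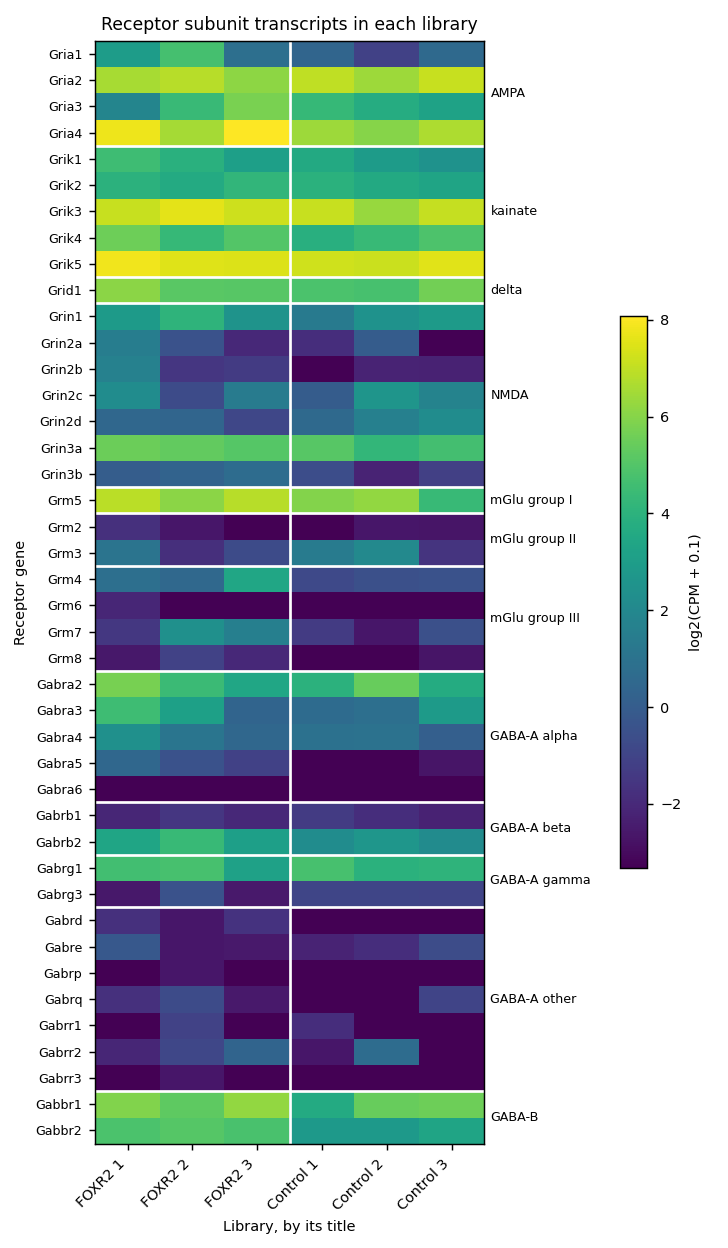
Heat map of log2(CPM + 0.1) for the 42 receptor genes (rows, grouped by receptor class) in the 6 libraries (columns, by title). Gria2, Gria4, Grik3, Grik5 and Grm5 are bright in every library, and most of the GABA-A genes listed as other are dark.

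Gabbr2 encodes the subunit of the GABA-B receptor that couples to G proteins and brings the receptor to the cell surface. It stood at 28.6, 33.3 and 27.6 CPM in FOXR2 replicates 1 to 3 and at 6.90, 6.79 and 9.82 CPM in Control replicates 1 to 3. The lowest library titled FOXR2 lay above the highest titled Control, at 29.8 ± 3.03 against 7.84 ± 1.72 CPM (SD, n = 3 each), a log2 change of 1.93 ± 0.25 (SE; edgeR adjusted p = 0.0298). Its obligate partner Gabbr1, which binds GABA, varied more. Gabbr1 stood at 60.1, 37.8 and 73.7 CPM in FOXR2-titled libraries and at 12.3, 42.5 and 47.5 CPM in Control-titled ones, where the groups overlapped (log2 fold change 0.75 ± 0.49, edgeR adjusted p = 0.392). Control replicate 1 was the low library for Gabbr1.

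Within each sex the direction was the same for Gabbr2. Among the males it measured 28.6 CPM (FOXR2 replicate 1) and 27.6 CPM (FOXR2 replicate 3) against 6.90 CPM in Control replicate 1. Among the females it was at 33.3 CPM in FOXR2 replicate 2 and at 6.79 and 9.82 CPM in Control replicates 2 and 3. With sex as a covariate the call was lost, at a log2 change of 2.01 (edgeR adjusted p = 0.0940). The call also ended without FOXR2 replicate 1 (adjusted p = 0.0580), without FOXR2 replicate 3 (0.109), and without Control replicate 1 (0.116), 2 (0.145) or 3 (0.0581). Without FOXR2 replicate 2, the library rich in microglial markers, it held (adjusted p = 0.0447). Over all alternatives the fitted value of Gabbr2 ranged from 1.79 to 2.12.

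**Figure D2:**
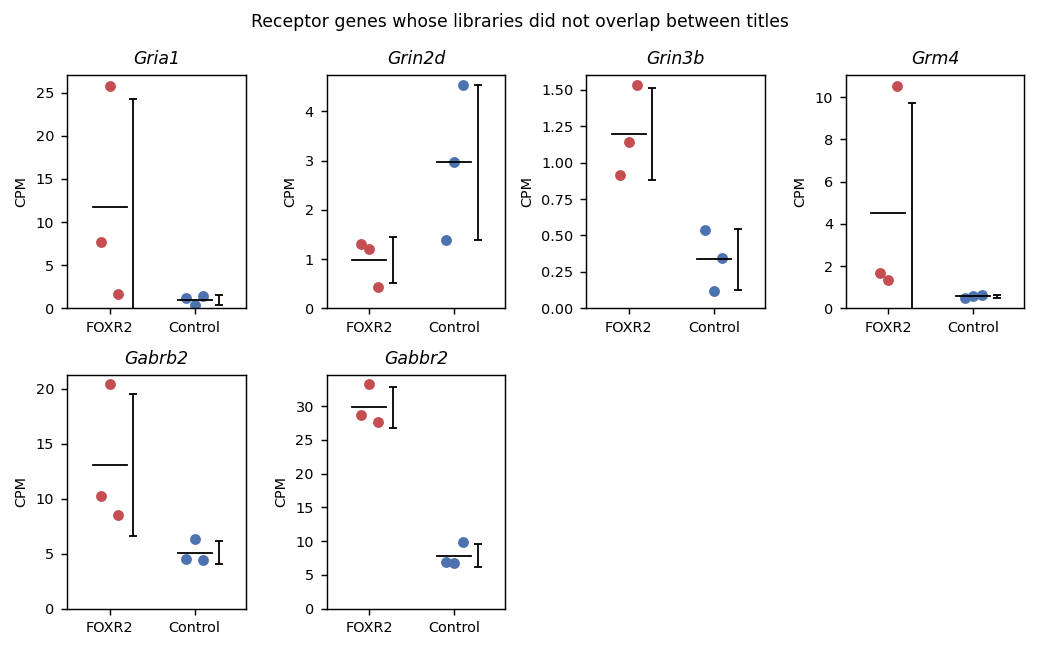
CPM (y axis, linear, from 0) in each library (points) for the 6 tested receptor genes whose groups did not overlap. Lines are group means and bars SD (n = 3 each), with bars cut at 0 where they would go below it; Gabbr2 shows narrow, well separated groups, and Gria1 and Grm4 rest largely on 1 library.

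The groups did not overlap for 5 tested receptor genes in the higher direction and for 1 in the lower, or 19.2% and 3.85% of the 26. Over all tested genes the shares were 13.1% and 17.2%, or 30.3% in either direction. Beside Gabbr2, the 5 were Gria1, Grin3b, Grm4 and Gabrb2, which were not called. Grin3b and Grm4 passed the filter through the libraries titled FOXR2 alone, so their place among the tested genes already depended on being higher there.

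Promoter sequence was at hand for 32 of the 42 genes (RefSeq, GRCm38.p6), and windows ran from 250 bases before the annotated start to 50 bases after it. The window of Gabbr2, the called gene, lies on the minus strand at chr4:46991665-46991964. That of Gabra6, which had 0 counts in every library, lies on the minus strand at chr11:42321023-42321322. They are printed to show the contrast in base composition between a transcribed and a silent receptor gene, with the 50 bases from the annotated start onward in capitals.
Gabbr2: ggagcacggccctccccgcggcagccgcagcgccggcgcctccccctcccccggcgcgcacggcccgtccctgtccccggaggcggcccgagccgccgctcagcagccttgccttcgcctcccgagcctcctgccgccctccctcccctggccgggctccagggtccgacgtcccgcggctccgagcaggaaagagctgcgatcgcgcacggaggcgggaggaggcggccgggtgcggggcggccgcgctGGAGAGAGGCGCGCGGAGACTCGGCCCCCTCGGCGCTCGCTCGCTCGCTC
Gabra6: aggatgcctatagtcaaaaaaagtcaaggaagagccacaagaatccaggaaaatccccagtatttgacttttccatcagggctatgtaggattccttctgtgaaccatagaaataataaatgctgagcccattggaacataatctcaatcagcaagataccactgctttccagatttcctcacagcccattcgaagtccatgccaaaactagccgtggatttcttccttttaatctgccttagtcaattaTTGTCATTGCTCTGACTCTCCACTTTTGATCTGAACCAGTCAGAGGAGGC
The Gabbr2 window had 80.3% G and C and 46 CpG dinucleotides, and the Gabra6 window 42.0% and 2. The median over 32851 windows of all genes was 7 CpG. The contrast did not extend to the matched genes as a whole. The 18 matched genes that passed the filter had a median of 17.5 CpG (0 to 50) and the 14 that did not had 13 (2 to 33), taking the richest window of each gene. Gabra3, tested at up to 23.2 CPM, had 0. The ETS core CGGAAG, on either strand, was found in windows of Grik2, Grik4, Grik5 and Gabrr3, 4 of 32 genes, and in 16.9% of all windows. The forkhead core TGTTTAC, on either strand, was found for Gabrr1 alone and in 3.65% of all windows. Neither motif contains the other, and neither is in the windows printed.

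AMPA receptors carry fast excitatory current, and edited GluA2, the product of Gria2, makes them impermeable to calcium. Gria4 was at 222, 92.1 and 269 CPM in FOXR2 replicates 1 to 3 and at 84.4, 64.5 and 101 CPM in Control replicates 1 to 3 (log2 fold change 1.22 ± 0.39, edgeR adjusted p = 0.120). FOXR2 replicate 2 lay between the values of the libraries titled Control, and without it Gria4 was called higher, at 1.56 on the log2 scale (edgeR adjusted p = 0.0464). Gria2 was at 96.3, 114 and 69.2 CPM against 128, 85.4 and 137 CPM, with overlapping groups (log2 fold change -0.33 ± 0.26, adjusted p = 0.484).

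Within the AMPA class the balance of these subunits differed between the titles, mainly in FOXR2 replicates 1 and 3, as a description with no test. On CPM per kilobase of the longest transcript, Gria2 made up 17.8%, 30.0% and 9.99% of AMPA transcripts in FOXR2 replicates 1 to 3. In Control replicates 1 to 3 it made up 38.8%, 36.3% and 38.9%, so the groups did not overlap. The 3 libraries titled Control were close to each other, at 38.0 ± 1.45%, while those titled FOXR2 spread to 19.3 ± 10.1% (SD, n = 3 each). Gria4 made up 78.2%, 46.3% and 74.0% against 48.7%, 52.3% and 55.0%, so its groups overlapped and FOXR2 replicate 2 was the lowest library. With coding length in place of transcript length the Gria2 share was 31.0 ± 13.9% and 54.5 ± 1.52%, again without overlap. Gria4 then held 66.9%, 36.1% and 67.8% against 35.7%, 39.0% and 40.2%, again with overlap, and which of these subunits led in the libraries titled Control turned with the length used. Per kilobase of transcript there were 4.39, 1.54 and 7.40 Gria4 for each Gria2 transcript in FOXR2-titled libraries and 1.25, 1.44 and 1.41 in Control-titled ones. FOXR2 replicate 2 was thus near the libraries titled Control in this ratio. Its lower Gria2 share came with a Gria1 share of 12.7%, against 2.66% and 0.453% in FOXR2 replicates 1 and 3 and 0.284% to 0.742% in Control-titled libraries.

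Gria1 and Gria3 varied strongly among tumors of the same title. Gria1, the subunit moved in synaptic plasticity, was at 7.70, 25.8 and 1.68 CPM in FOXR2-titled libraries and at 1.20, 0.358 and 1.39 CPM in Control-titled ones. The groups did not overlap, but FOXR2 replicate 3 was close to Control replicate 3 (log2 fold change 3.56 ± 1.01, edgeR adjusted p = 0.0952). Gria3 was at 3.59, 20.8 and 54.3 CPM against 19.7, 13.1 and 9.47 CPM, so that FOXR2 replicate 1 was the lowest of all libraries and FOXR2 replicate 3 the highest (adjusted p = 0.533). Without FOXR2 replicate 3 the fitted value of Gria3 was -0.22.

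**Figure D3:**
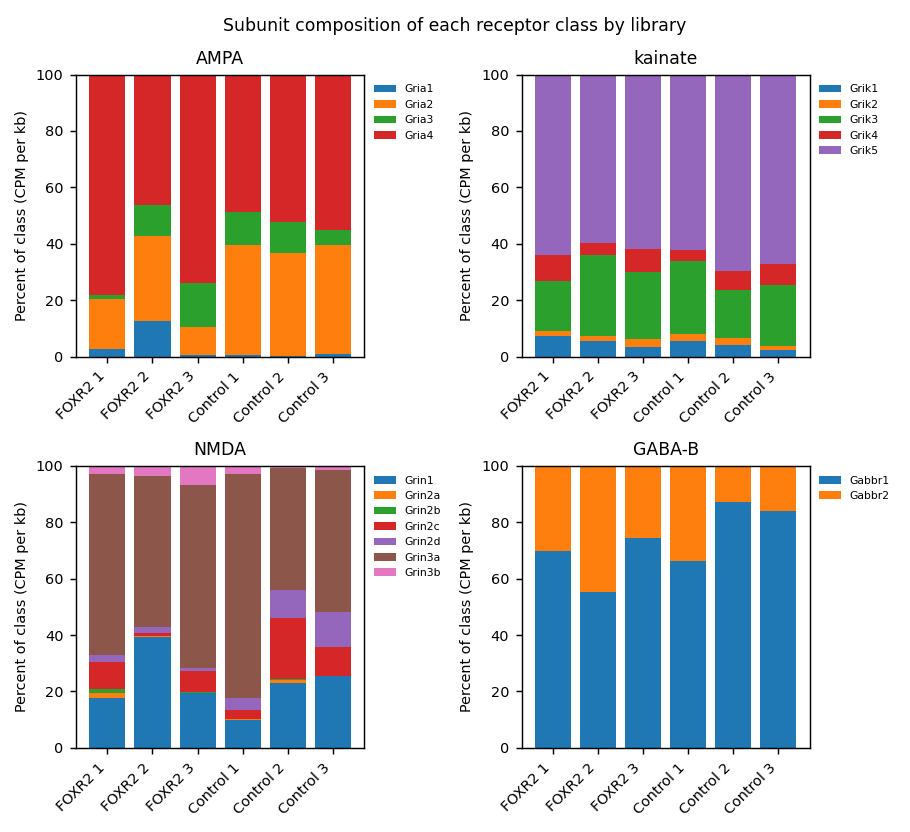
Percent of each receptor class (y axis, CPM per kilobase of the longest transcript) made up by each subunit (colors) in the 6 libraries (x axis). Gria2 takes 9.99% to 30.0% of the AMPA class in libraries titled FOXR2 and 36.3% to 38.9% in Control-titled ones, and Grik5 leads the kainate class in all 6.

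Kainate receptors modulate transmission before and after the synapse, and Grik4 and Grik5 encode subunits that bind glutamate tightly but need a partner from Grik1 to Grik3 to form a channel. Grik5 had the highest level per kilobase of the 42 genes, at a mean of 43.9 CPM per kilobase over the 6 libraries, followed by Gria4 (25.5), Grik3 (15.5), Gria2 (10.1) and Grm5 (9.49). All 5 kept this order on coding length. Grik5 was at 227, 182 and 175 CPM against 152, 145 and 189 CPM and Grik3 at 139, 193 and 149 against 139, 79.2 and 135 CPM. Both overlapped between the titles (edgeR adjusted p = 0.440 and 0.342). Per kilobase of the longest transcript, Grik5 made up 61.9 ± 2.17% of kainate transcripts in FOXR2-titled libraries and 66.3 ± 3.84% in Control-titled ones. On coding length it made up 44.9 ± 3.68% and 49.2 ± 4.68%, and Grik3 led in FOXR2 replicate 2, at 47.1% against 41.7%. Grik1, Grik2 and Grik4 ranged from 5.46 to 46.8 CPM, and all 5 kainate genes were fitted above 0 without a call.

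Grid1 encodes a delta receptor, which binds cerebellin at synapses and is not opened by glutamate. It was at 68.1, 35.4 and 34.1 CPM against 29.0, 27.2 and 49.4 CPM, with overlapping groups (edgeR adjusted p = 0.544).

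NMDA receptors need Grin1, whose product binds glycine, and usually a glutamate-binding subunit from Grin2a to Grin2d. Grin1 was modest, at 7.24, 16.7 and 5.76 CPM against 2.52, 5.54 and 7.38 CPM, and its groups overlapped (edgeR adjusted p = 0.332). The glutamate-binding subunits were scarce. Grin2b, the main form of the embryonic brain, had 47, 4 and 4 counts in FOXR2 replicates 1 to 3 and 0, 2 and 2 in Control replicates 1 to 3, and did not pass the filter. Grin2a stayed at or under 2.74 CPM, and Grin2c ranged from 0.506 to 6.02 CPM. Grin2d was the receptor gene whose libraries titled FOXR2 all lay lower, at 1.30, 1.20 and 0.438 CPM against 1.38, 2.98 and 4.53 CPM. The nearest libraries differed by 20 against 23 counts, and the gene was not called (log2 fold change -1.58 ± 0.63, edgeR adjusted p = 0.179).

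Grin3a, which encodes a glycine-binding subunit that lowers calcium flux, was the most abundant NMDA gene. It was at 46.1, 40.1 and 33.9 CPM in FOXR2-titled libraries and at 35.0, 18.3 and 25.5 CPM in Control-titled ones (edgeR adjusted p = 0.222). It made up 60.9 ± 6.34% and 57.8 ± 19.1% of NMDA transcripts per kilobase (SD, n = 3 each). Its relative Grin3b was at 0.913, 1.14 and 1.53 CPM against 0.540, 0.119 and 0.349 CPM, on at most 21 counts in a library. Exons of Tmem259 lie on the opposite strand of Grin3b, and whether counting used strand was not stated.

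Among the metabotropic glutamate receptors, Grm5 of group I, which raises intracellular calcium, had the highest level of those described. It was at 119, 67.4 and 115 CPM in FOXR2-titled libraries and at 61.3, 74.6 and 20.3 CPM in Control-titled ones. FOXR2 replicate 2 lay under Control replicate 2, and the gene was not called (log2 fold change 0.95 ± 0.47, edgeR adjusted p = 0.256). Grm3 of group II was at 0.190 to 3.99 CPM with no order by title. Of group III, inhibitory receptors found mostly at nerve terminals, Grm4 reached 10.5 CPM in FOXR2 replicate 3. In the other 2 libraries titled FOXR2 it was at 1.70 and 1.33 CPM and in Control-titled ones at 0.480, 0.596 and 0.639 CPM (edgeR adjusted p = 0.106). Grm7 had 4, 82 and 40 counts against 5, 1 and 10 and did not pass the filter. Grm2, Grm6 and Grm8 had at most 6 counts in any library.

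A typical GABA-A receptor joins alpha and beta subunits with a gamma or delta subunit. Of the alpha genes described, Gabra2 had the highest level, at 52.7, 21.5 and 10.7 CPM in FOXR2-titled libraries and 15.7, 42.6 and 13 CPM in Control-titled ones. Its groups overlapped (edgeR adjusted p = 0.840). Gabra3 was at 23.2, 8.67 and 1.17 CPM against 1.5, 1.67 and 7.20 CPM, and FOXR2 replicate 1 was the high library for Gabra2, Gabra3 and Gabra4. Gabra5 had 20, 10 and 5 counts against 0, 0 and 1 and did not pass the filter.

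Gabrb2, which encodes a beta subunit, was at 10.2, 20.4 and 8.54 CPM in FOXR2-titled libraries and at 4.56, 6.32 and 4.42 CPM in Control-titled ones. Its groups were apart, but it was not called (log2 fold change 1.36 ± 0.41, edgeR adjusted p = 0.108). Gabrb1 had at most 5 counts in any library.

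Gabrg1, which encodes a gamma subunit found in glia, was at 24.2, 26.7 and 9.19 CPM against 26.9, 15.4 and 16.8 CPM. The groups overlapped, at a log2 change of 0.025 ± 0.43 (edgeR adjusted p = 0.978). Gabrg3 had 1, 10 and 1 counts against 7, 7 and 7. The delta, epsilon, theta, pi and rho genes did not pass the filter, and the highest of their values was 1.55 CPM, for Gabrr2 in Control replicate 2.

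Neighbouring GABA-A genes on chromosome 5 differed widely in level. In the RefSeq order, Gabrg1 and Gabra2 averaged 4.16 and 4.45 CPM per kilobase of the longest transcript over all libraries. Their neighbours Gabra4 and Gabrb1 averaged 0.533 and 0.0136. Annotated exons of Gabra4 and Gabrb1 overlap on opposite strands.

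**Figure D4:**
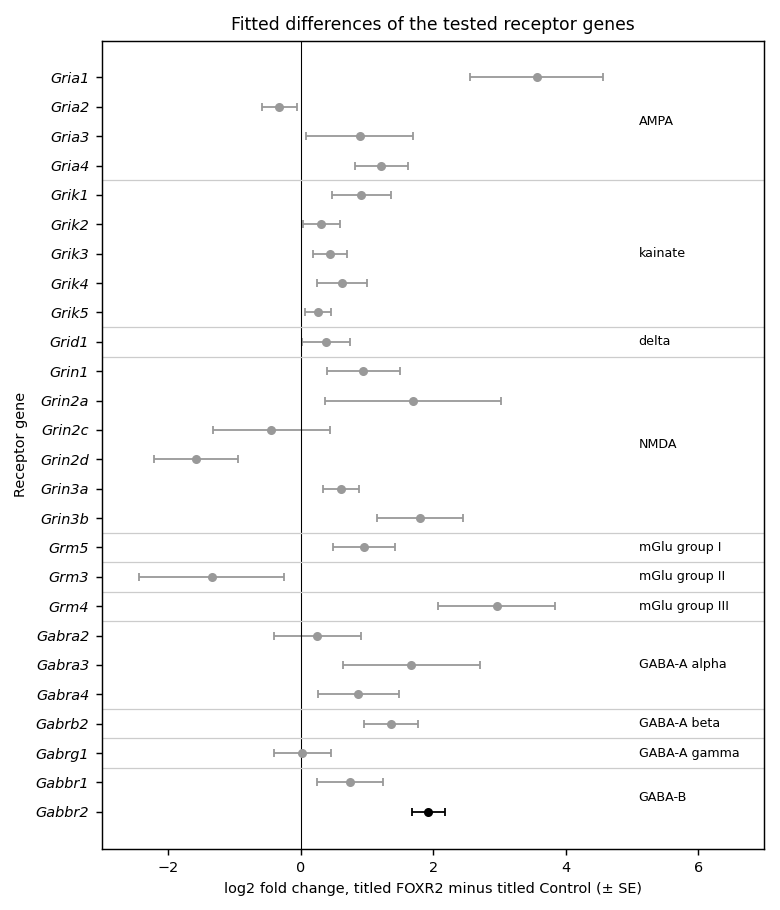
Log2 fold change (x axis, titled FOXR2 minus titled Control, bars are SE) of the 26 tested receptor genes (y axis, by class). Black marks the gene with an adjusted p under 0.05, Gabbr2 at 1.93; gray genes missed the threshold, and 22 of the 26 values lie above 0.

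Partner genes of these receptors were described from 7 lists of 79 genes, of which 65 were tested. Dlg3 and Slc1a2 were called higher and 0 partners lower, or 2 of 65, beside 0.908% and 1.38% over all tested genes. DESeq2 called 13 of 68 higher, beside 6.73% of all genes to which it gave an adjusted p. When an offset allowed for length and GC content, 0 were called by edgeR (adjusted p = 0.0546 for Dlg3 and 0.0661 for Slc1a2). With sex as a covariate 0 were called as well (0.122 and 0.115), and without FOXR2 replicate 2 the called partners were Dlgap3, Kctd12b, Shisa7 and Slc1a2. Without any other library 0 partners were called.

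Scaffold genes of glutamate synapses lay mostly above 0, at 15 of 18 tested with a median log2 fold change of 0.49. Dlg3, the scaffold SAP102 that anchors NMDA receptors early in development, was at 36.6, 45.8 and 38.8 CPM in FOXR2-titled libraries and at 18.8, 13.2 and 17.3 CPM in Control-titled ones, without overlap. Its log2 fold change was 1.30 ± 0.22 (edgeR adjusted p = 0.0437). Dlgap3 and Grip2, also scaffold genes, were at 1.52 ± 0.34 and 2.13 ± 0.44 on that scale (edgeR adjusted p = 0.0615 and 0.0550). Grip2, at 0.540, 0.477 and 0.523 CPM in Control-titled libraries, reached the filter's cutoff only in those titled FOXR2. Its place among the 18 tested, and in their count above 0 and median, already depended on being higher there.

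Auxiliary subunits of AMPA and kainate receptors had a median of 0.49, with 11 of 13 above 0 and 0 called. The smallest p-values belonged to Shisa7, a partner of AMPA and GABA-A receptors, at 81.9, 28.7 and 104 against 17.1, 18.8 and 21.0 CPM, to Gsg1l (log2 fold change 3.19 ± 0.84) and to the kainate receptor partner Neto2 (1.6 ± 0.43). Their edgeR adjusted p were 0.0653, 0.0816 and 0.0861. Scaffold and auxiliary genes of GABA receptors had a median of 0.28, with 10 of 12 above 0 and 0 called. The GABA-B auxiliary gene Kctd12b, Lhfpl3 and the adhesion gene Nlgn2 led them by p (edgeR adjusted p = 0.0922, 0.192 and 0.236).

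The 5 tested genes described for GABA synthesis, uptake and breakdown were fitted above 0, with a median of 1.61 and 0 called. The GABA transporter gene Slc6a11 was at 17.0, 20.6 and 118 against 3.66, 5.78 and 12.1 CPM, apart but not called (edgeR adjusted p = 0.106). Abat, which breaks GABA down, and the monoamine oxidase gene Maob were at 1.18 and 1.61 on the log2 scale (adjusted p = 0.169 and 0.202). Of 11 glutamate genes 5 lay above 0, with a median of -0.062. Among them Slc1a2, the glial glutamate transporter, was called higher at 73.9, 76.1 and 96.9 against 19.5, 22.2 and 32.3 CPM (edgeR adjusted p = 0.0379). The serine racemase gene Srr and then Slc1a3 followed by p (edgeR adjusted p = 0.119 and 0.175).

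Chloride transport sets whether GABA depolarizes a cell. Slc12a2, the importer, was at 74.4, 226 and 132 CPM against 163, 120 and 156 CPM (edgeR adjusted p = 0.981). Slc12a5, the exporter of mature neurons, was low, at 2.74, 4.49 and 4.38 against 1.44, 1.37 and 1.86 CPM, apart but not called (adjusted p = 0.113). Per kilobase, Slc12a2 exceeded Slc12a5 by 25.1 to 46.6 times in FOXR2-titled libraries and by 77.4 to 105 times in Control-titled ones. The RNA editing genes Adar and Adarb2 were at log2 fold changes of 1.06 and 1.31 (adjusted p = 0.0678 and 0.0865). Of the glycine receptor genes Glrb alone was tested, at 36.3 to 56.7 and 35.6 to 69.9 CPM (adjusted p = 0.987).

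**Figure D5:**
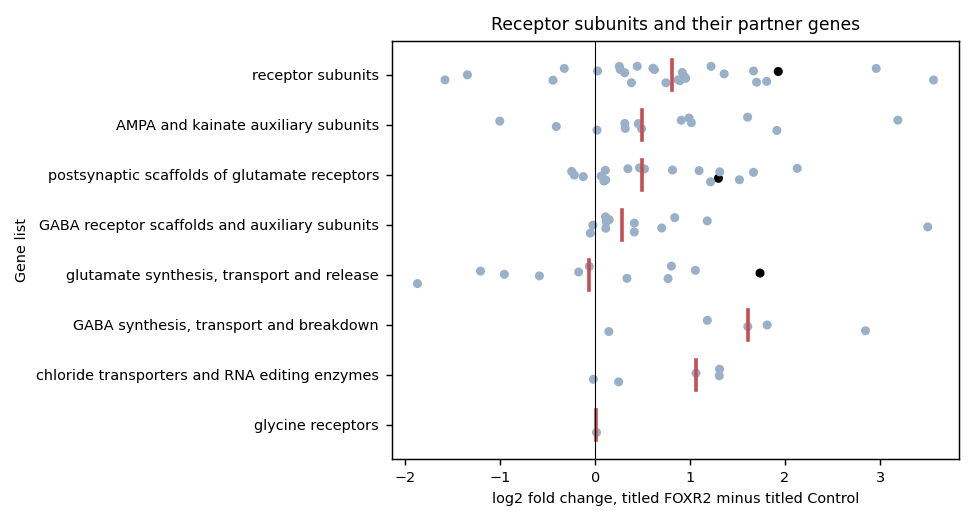
Log2 fold change (x axis) of each tested gene (points) in the receptor family and 7 partner lists (y axis). Red lines are list medians and black points are genes with an adjusted p under 0.05: Gabbr2, Dlg3 and Slc1a2. Vertical scatter within a list only separates points.

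Summed markers of immature neurons, mature neurons and oligodendrocyte precursors did not overlap between the titles and were higher in FOXR2-titled libraries, while those of the other 5 cell types overlapped. Of single tested genes 30.3% were apart in either direction, and no such share is at hand for sums. In bulk tumor RNA, more cells of a type and more RNA per cell cannot be told apart. The 9 immature neuron markers summed to 624 to 775 CPM in FOXR2-titled libraries and 217 to 400 CPM in Control-titled ones, and 7 of 8 tested were fitted above 0 without a call. The 12 mature neuron markers summed to 911 to 997 and 796 to 856 CPM, with 6 of 12 above 0 and Syt1 and Syn1 called higher. Over all tested genes 0.908% were called higher and 1.38% lower. Most of that sum was Map2, at 560, 622 and 805 CPM in FOXR2-titled libraries and 612, 598 and 462 CPM in Control-titled ones. Map2 overlapped between the titles, so the separation of the sum does not describe the list as a whole. Among the mature neuron markers, Rbfox3, Snap25, Syt1 and Syn1 lay higher in every FOXR2-titled library, and the neurofilament genes Nefl and Nefm lay lower in every one, at log2 values of -1.06 and -1.73 without a call (edgeR adjusted p = 0.250 and 0.102). Over all tested genes 13.1% were apart in the higher direction and 17.2% in the lower. Markers of oligodendrocyte precursors summed to 8277 to 10795 and 6325 to 7455 CPM, with 9 of 11 above 0 and 0 called. The largest term was Pdgfra, at 3599, 2497 and 3263 CPM against 2045, 2506 and 2018 CPM. All tumors carried the PdgfraD482V construct, and whether its reads are among the Pdgfra counts was not tested. No listed marker was at 0 counts in all libraries. The part of these markers in the receptor differences was not tested. Levels on the mature neuron list ran from Nefh and Slc17a7, at or under 1.98 and 1.68 CPM, to Map2, at 462 to 805 CPM. Snap25 was at 6.2, 7.53 and 3.79 CPM against 1.92, 3.04 and 2.09 CPM. Astrocyte, interneuron, endothelial and mature oligodendrocyte marker sums were 464 to 658, 7.15 to 49.1, 1.39 to 15.2 and 190 to 4820 CPM in FOXR2-titled libraries. In those titled Control they were 376 to 477, 4.62 to 17.6, 3.20 to 4.20 and 237 to 3394 CPM.

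Receptor transcripts are long, and fitted values moved with transcript length across all genes. The fifth of tested genes with the shortest transcripts had a median log2 change of -0.19 and the fifth with the longest 0.23. The tested receptor genes had a median length of 5339.5 bases, against 3492 for all tested genes. With an offset for length and GC content their median was 0.67 and Gabbr2 stayed called (edgeR adjusted p = 0.0375).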

How the data were processed

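Poly(A)-selected RNA of 6 tumors was sequenced as 51-base single reads from a directional kit, per the labels' protocols. The authors deposited whole-number read counts per gene symbol. Per the submitters' processing notes, TopHat, DESeq2 and the human build hg19 were involved, with no roles stated; the gene symbols follow mouse usage. Counter, annotation, strand setting and treatment of multiply mapped reads are not given in the sources, so counts of similar subunits or of genes on opposite strands may be shared. The deposited sample sheet holds group names only.

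The test was that of edgeR 4.0.16, run in R 4.3.3 (filterByExpr with a count minimum of 10, TMM factors of 0.961 to 1.03, quasi-likelihood F test, no covariate). Genes with an adjusted p under 0.05 were called. Fold changes use a prior count of 0.125. The standard error was taken as the fold change over the square root of F. Floors cover counting error only. Of the table's rows, 23 hold dates and were not named. Libraries of the same title differed by more than sampling noise (median chi-square per gene at least 8.68). Levels between genes are per kilobase of the longest GENCODE M21 transcript of each symbol, which was found for 42 of 42 genes described. The edgeR test was checked on simulated counts.

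Receptor genes and lists were chosen with earlier results of these data known. Of the 47 receptor genes that the symbol rule found, 5 are not reported here, nor are 2 listed partner genes. The fit used all genes, and counts, medians and shares cover the genes described. Any described receptor gene could be named. Values in every library were given for called receptor genes, tested ones with groups apart and the leading gene of most classes. The 3 genes with the smallest p were named per partner list, and marker lists were given as sums, with some marker genes named singly. Alternatives were each library left out, RLE factors, DESeq2 1.42.0, no filter on low counts, total-count scaling, the replicate block, a length and GC offset (mgcv 1.9.3, 97.7% of tested genes), both together, and sex. Coding length was added after seeing the data.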

Additional observations from a re-analysis of the deposited data

How the results depend on the processing

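Among all genes, 119 were called higher and 181 lower, among the receptor genes described 1 and 0 and among partner genes 2 and 0. RLE factors and no filter kept each of these counts within 1.5 times, and total-count scaling moved only the genes called lower, to 119. DESeq2 called 942 and 938 genes, 7 receptor genes and 13 partner genes higher and 0 of either lower. With the length and GC offset 74 and 88 genes, 1 receptor gene and 0 partner genes were called. With sex as a covariate 7 genes were called higher and 0 lower, with 0 receptor or partner genes (edgeR; 2398 genes and 5 receptor genes had an unadjusted p under 0.05). Leaving out 1 library gave 1 to 123 genes called higher and 0 to 82 lower. Receptor genes called were 0 to 2 higher and 0 lower, and partner genes 0 to 4 higher and 0 lower. The receptor median was 0.52 to 0.90. Groups were apart for 6 to 10 receptor genes in the higher direction and 1 to 2 in the lower. Smaller groups separate more readily and no share over all genes is at hand here, so the counts apart are not a result about receptors. In these fits 5 to 9 receptor genes had an unadjusted p under 0.05. The cause of these changes was not tested.

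The replicate numbers share no stated origin, and same-numbered libraries did not deviate together (correlations of -0.0064, -0.23 and -0.0086 for numbers 1, 2 and 3). With the replicate block edgeR called 0 genes in either direction, and thus 0 receptor and 0 partner genes, while 2652 genes and 7 receptor genes had an unadjusted p under 0.05. Gabbr2 was fitted at 1.94 there (adjusted p = 0.114). The block together with the offset also called 0, with a receptor median of 0.53 and 2540 genes and 5 receptor genes at an unadjusted p under 0.05.

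Fitted values changed sign for 6 receptor genes that were not called in any setting. Among them Gria3, at 0.89 with all libraries, was at -0.22 without FOXR2 replicate 3, and Grin2c, at -0.44, was at 0.041 without FOXR2 replicate 2 and 0.26 without Control replicate 2. With 1 library left out the ranges were -0.22 to 1.42 for Gria3, -0.0094 to 0.70 for Grid1, -1.16 to 0.26 for Grin2c, -0.56 to 0.99 for Gabra2 and -0.24 to 0.37 for Gabrg1. Gabrg1 was at -0.073 with the block and -0.11 with the offset, and with both Grik2 was at -0.0051, Gabra2 at -0.055 and Gabrg1 at -0.21. The filter, at about 0.630 CPM in 3 libraries, left 16 of the 42 receptor genes out of the test. With no filter 41 of them were fitted and Gabbr2 alone was called by edgeR.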
